A study of Homo sapiens with 6 samples.

Results

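This account covers 43 genes of the cell division cycle, picked by symbol from the 38557 genes listed for each library. They comprise 18 genes of DNA replication and its onset, 22 genes of G2 phase and mitosis (G2/M), and 3 D-type cyclins that act in G1. All 43 symbols were found, and all 43 passed the filter on low counts that left 16107 genes. RNA sequencing had been done on cardiomyocytes derived from the human induced pluripotent stem cell line WTC11, which is long established, labelled wild type throughout. The cells had been kept either in RPMI plus B27, a serum-free supplement, or in DMEM plus fatty acids, with 3 biological replicates of each medium numbered 1 to 3. The labels give neither how long the cells were in the media nor what the replicates with the same number share, so p-values measure the spread between these libraries only.

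Cells duplicate their DNA in S phase and divide in mitosis. Genes for replication are switched on at the entry into S phase by E2F transcription factors, once D-type and E-type cyclins with their kinases have relieved the block that the Rb proteins place on E2F. Genes for mitosis are switched on later, through the MuvB complex with B-MYB and FOXM1. Cardiomyocytes divide in the fetal heart and largely leave the cycle as they mature, so in cultures of stem cell-derived cardiomyocytes these genes report on whatever cells are still cycling. In bulk RNA, fewer cycling cells and less of a transcript per cell cannot be told apart.

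Gene counts ran from 23232324 to 31035389 per library, and any pair of libraries differed by a chi-square of at least 32.4 per degree of freedom, far above sampling noise. Levels are given as CPM, gene counts as a share of the library's total with TMM scaling (a correction for differences in composition between libraries). None of 15 cardiomyocyte markers stayed under 1 CPM throughout, and TNNT2 (cardiac troponin T) stood at 3001 to 4216 CPM. Of 8 pluripotency markers, 6 stayed under 1 CPM everywhere, all but TDGF1 and DNMT3B. TDGF1 had 14.6, 57.1 and 52.8 CPM in RPMI plus B27 replicates 1, 2 and 3 and 24.2, 61.4 and 46.9 CPM in DMEM plus fatty acids. DNMT3B had 6.29 to 14.9 CPM, highest in replicate 3 of both media. Summed cardiomyocyte markers were lowest in replicate 3 of both media, at 51553, 48390 and 43161 CPM in RPMI plus B27 replicates 1, 2 and 3 and 42274, 45220 and 28802 CPM in DMEM plus fatty acids. In RPMI plus B27, MYH7 (13359, 7544 and 8011 CPM) and ACTC1 (10597, 9153 and 7765 CPM) carried much of the fall from replicate 1 to 3. MYH6 (3504, 5119 and 5653 CPM), MYL4 and NKX2-5 were highest in replicate 3 of that medium, but not of DMEM plus fatty acids. Fibroblast and stromal markers (12 genes) summed to 8415, 5394 and 4341 CPM in RPMI plus B27 and to 758.5, 1959 and 1810 CPM in DMEM plus fatty acids. The sums of endothelial and of endoderm markers (6 genes each) were highest in replicate 3 of both media. The endothelial sum followed KDR alone, whereas EMCN and TEK were highest in replicate 1 of both media. EMCN had 7.80, 1.32 and 1.23 CPM in RPMI plus B27 and 0.301, 0.234 and 0.0296 CPM in DMEM plus fatty acids. The endothelial sums were 37.2, 145.7 and 240.7 CPM in RPMI plus B27 and 115.1, 400.1 and 463.6 CPM in DMEM plus fatty acids, of which KDR made up 27.5 to 463.2 CPM and EMCN 7.80 CPM in RPMI plus B27 replicate 1, with PECAM1, CDH5 and VWF under 1 CPM in every library. The endoderm sums were 15.9, 43.1 and 111.3 CPM against 7.75, 21.5 and 31.5 CPM, with AFP and APOA1 at 62.8 and 37.4 CPM in RPMI plus B27 replicate 3. APOA1 was level between replicates 2 and 3 of DMEM plus fatty acids (20.9 and 20.8 CPM). FOXA2, TTR and HNF4A, at most 4.85 CPM, were highest in replicate 3 of both media. SOX17, under 1 CPM throughout, was lowest there. No marker was at 0 in all 6 libraries. The part that these cell types play in the levels below was not tested.

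The replication and G2/M genes followed the replicate number more than the medium, whereas the D-type cyclin CCND1 did not. In both media, replicate 3 held the highest level of all 18 replication genes and all 22 G2/M genes, and of 2 of the 3 D-type cyclins, under each of the 3 scalings tried. Among all genes tested, 16.2% were highest in replicate 3 of both media. A lead of at least 1.5-fold over replicates 1 and 2 in both media was found for 14 of the 18 replication genes and 17 of the 22 G2/M genes, against 2.14% of all genes. The exceptions were PCNA, CDT1, CCNE1 and E2F1 among the former and CDK1, TOP2A, BUB1, CENPA and UBE2C among the latter.

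**Figure D1:**
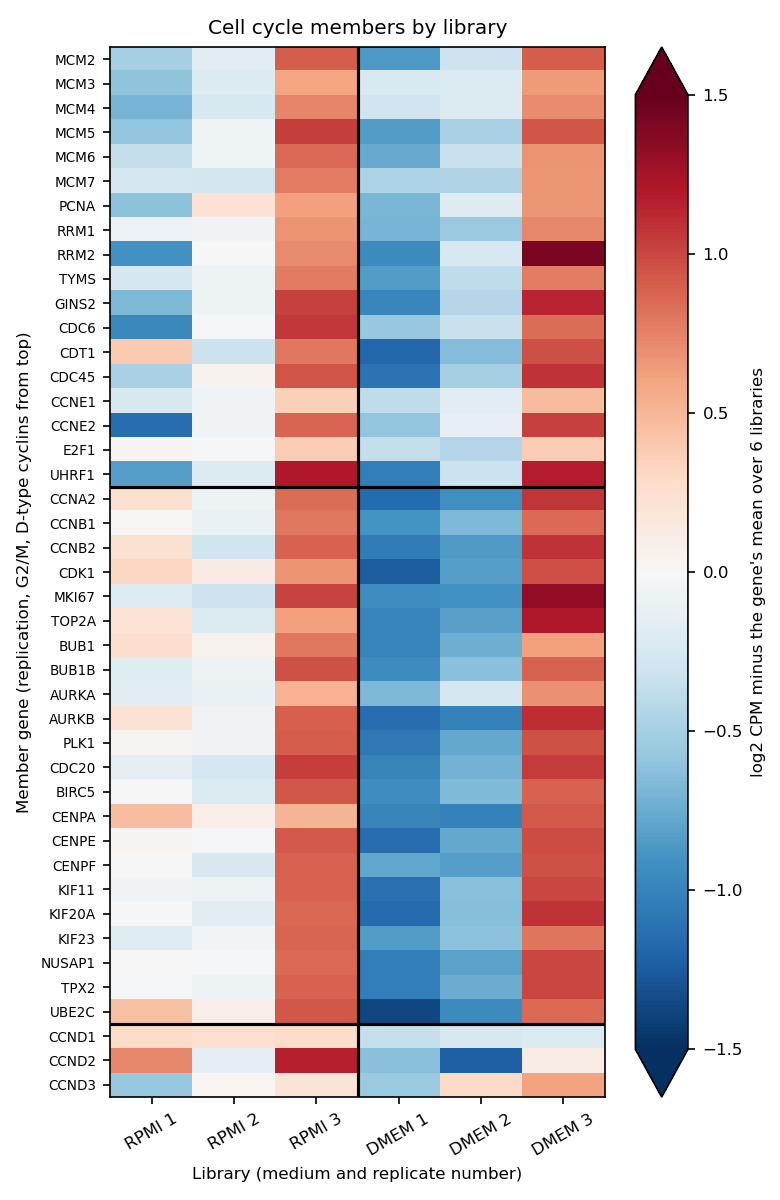
Each row is 1 of the 43 genes and each column 1 of the 6 libraries, with colour giving log2 CPM minus that gene's mean over the 6 libraries, and black lines separating roles and media. Both replicate 3 columns are red for all replication and G2/M genes, and the 22 G2/M genes are bluest in DMEM plus fatty acids replicates 1 and 2.

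Among the replication genes, the 6 subunits of the MCM helicase, which opens the double helix ahead of the replication fork, were each highest in replicate 3 of both media. MCM2 stood at 28.4, 35.9 and 75.6 CPM in RPMI plus B27 replicates 1, 2 and 3, and at 22.1, 32.4 and 75.6 CPM in DMEM plus fatty acids. MCM5 stood at 27.5, 39.8 and 85.6 CPM against 23.3, 29.6 and 79.8 CPM. In both genes the 3 replicates were spread over more than 2-fold within a medium, and the media differed less than the replicates did. MCM6 had 44.6, 54.7 and 103.5 CPM against 33.8, 45.5 and 91.4 CPM, and MCM7 had 78.9, 77.6 and 159.4 CPM against 68.2, 68.8 and 148.0 CPM. MCM3 (84.5, 111.1 and 193.1 against 109.4, 110.8 and 199.4 CPM) and MCM4 (66.0, 90.6 and 177.3 against 87.0, 92.9 and 175.5 CPM) were likewise highest in replicate 3, with replicate 1 higher in DMEM plus fatty acids than in RPMI plus B27.

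The loaders and activators of the helicase were also highest in replicate 3. CDC6, which loads the MCM ring onto origins, had 12.1, 23.1 and 49.3 CPM in RPMI plus B27 and 15.8, 18.7 and 42.1 CPM in DMEM plus fatty acids. GINS2, part of the active helicase, had 8.59, 13.0 and 27.9 CPM against 6.93, 10.1 and 30.1 CPM. CDC45, its partner, had 5.84, 8.47 and 15.7 CPM against 3.79, 5.79 and 17.2 CPM. In CDT1, the other loading factor, replicate 1 of RPMI plus B27 (21.9 CPM) exceeded replicate 2 (13.3 CPM) and replicate 3 had 28.9 CPM, against 7.36, 10.6 and 32.5 CPM in DMEM plus fatty acids.

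The widest gap between numbers in this group was that of UHRF1, which recognises newly replicated, hemimethylated DNA. It had 6.82, 10.5 and 27.9 CPM in RPMI plus B27 and 5.90, 9.63 and 27.4 CPM in DMEM plus fatty acids, with a fitted log2 difference of 2.12 between replicates 3 and 1. RRM2, the regulated subunit of ribonucleotide reductase, had 29.5, 55.1 and 90.1 CPM against 28.5, 47.0 and 146.8 CPM, the last value being 1.63 times that of its pair. Its partner RRM1 ranged from 46.5 to 124.0 CPM, TYMS (thymidylate synthase) from 18.7 to 57.8 CPM and PCNA (the sliding clamp of the polymerases) from 27.8 to 70.5 CPM. Of the genes that act at the G1 to S switch, E2F1 and CCNE1 (cyclin E1) spread less, with fitted log2 differences of 0.54 and 0.72 between replicates 3 and 1, and CCNE2 (cyclin E2) did not, with 1.80. E2F1 had 27.2, 26.5 and 34.5 CPM against 20.7, 19.5 and 34.4 CPM, and CCNE1 15.1, 17.2 and 22.8 CPM against 13.7, 16.0 and 24.7 CPM. CCNE2 was low, at 0.942 to 4.24 CPM.

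The G2/M genes were likewise highest in replicate 3, and replicates 1 and 2 were ordered differently in the media. In RPMI plus B27 replicate 2 was below replicate 1 for 19 of the 22 genes (median ratio 0.902). In DMEM plus fatty acids it was above for 20 of 22 (median ratio 1.20). The order in RPMI plus B27 was weaker among 68 other G2/M genes, a list described further below. There replicate 2 was below replicate 1 for 39 and above for 29 (median ratio 0.950). In DMEM plus fatty acids replicate 2 was above for 51 of the 68 (median ratio 1.14). Among the 18 replication genes it was above replicate 1 for 15 and 17 (median ratios 1.34 and 1.36). Between replicates 3 and 1 the median fitted log2 differences of G2/M and replication genes were 1.40 and 1.32, beside -0.00 over all genes. MKI67, whose product coats mitotic chromosomes and is the usual marker of cycling cells, had 71.6, 66.1 and 165.5 CPM in RPMI plus B27 and 42.97, 43.8 and 205.8 CPM in DMEM plus fatty acids. TOP2A (DNA topoisomerase II alpha) had 149.0, 110.6 and 198.4 CPM against 64.8, 73.3 and 297.5 CPM. CDC20, an activator of the anaphase-promoting complex, had 30.9, 28.4 and 69.4 CPM against 17.0, 20.8 and 70.2 CPM. In all 3 genes the DMEM plus fatty acids libraries had both the lowest values and the highest.

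The median ratio of replicate 3 to replicate 1 over the 22 G2/M genes was 1.80 for RPMI plus B27 libraries and 4.13 for those in DMEM plus fatty acids. For the 18 replication genes it was 2.50 and 2.88. Summed over genes, the G2/M level was 1084, 964.6 and 1864 CPM in RPMI plus B27 and 529.0, 629.3 and 2085 CPM in DMEM plus fatty acids. The replication sum was 586.3, 735.4 and 1342 CPM against 540.9, 635.6 and 1381 CPM. The ratio of the G2/M sum to the replication sum was thus 1.85, 1.31 and 1.39 in RPMI plus B27 and 0.978, 0.990 and 1.51 in DMEM plus fatty acids, so only replicate 3 of the latter fell within the range of the former.

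**Figure D2:**
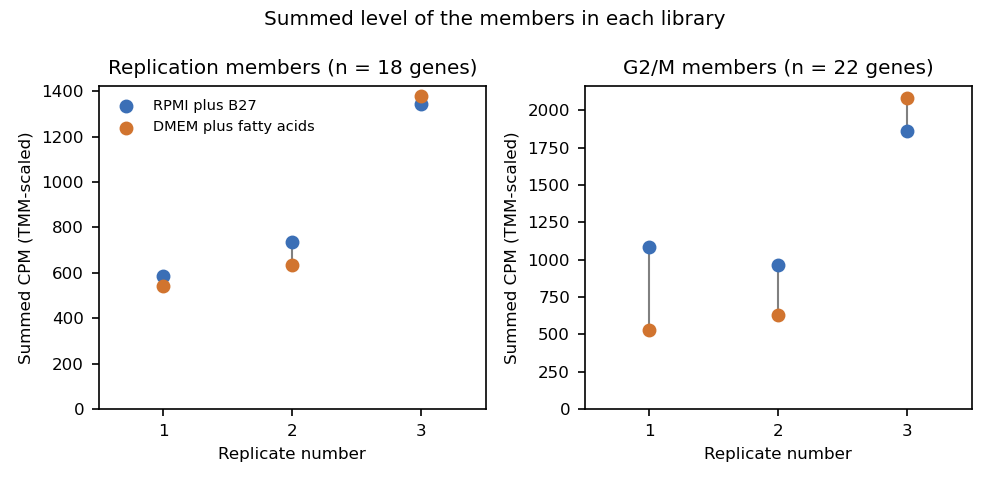
Summed CPM of the 18 replication genes (left) and the 22 G2/M genes (right) against the replicate number, with 1 point per library and a grey line joining the media of 1 number. Replicate 3 is highest in both panels. For G2/M genes DMEM plus fatty acids lies below RPMI plus B27 in replicates 1 and 2 and above it in replicate 3.

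A test of the replicate number, with the medium kept as a term, called 13 of the 43 genes (edgeR quasi-likelihood F test, Benjamini-Hochberg over all genes, adjusted p under 0.05), against 0.844% of all genes tested. They were 9 of the 18 replication genes (MCM2, MCM4, MCM5, MCM6, MCM7, RRM2, GINS2, CDC6 and UHRF1), 3 of the 22 G2/M genes (BUB1B, CDC20 and KIF23) and CCND2. Adjusted p values of the 13 ran from 0.0386 for MCM5 and UHRF1 to 0.0490 for CDC6 and KIF23. An unadjusted p under 0.05 was reached by all 18 replication genes, by 21 of 22 G2/M genes (all but CENPA) and by 2 of 3 D-type cyclins, beside 17.2% of all genes. BUB1B, a kinase-like protein of the spindle checkpoint, had 31.6, 34.1 and 69.2 CPM in RPMI plus B27 and 18.6, 23.1 and 66.0 CPM in DMEM plus fatty acids. KIF23, a motor of cytokinesis, had 37.0, 40.8 and 76.9 CPM against 23.4, 27.5 and 73.5 CPM. Without the medium as a term, 0 of the 43 and 0 of all genes were called. With 2 residual degrees of freedom these calls by number with the medium as a term sat close to the threshold, and the count moved with the libraries kept. Without RPMI plus B27 replicates 1, 2 or 3 it was 42, 24 and 32 of 43 (13.2%, 1.42% and 1.92% of all genes), and without DMEM plus fatty acids replicates 1 and 3 it was 40 and 3 (15.01% and 0.863%). With both libraries of replicate 1 or of replicate 2 left out it was 39 and 27 (6.59% and 1.95% of all genes), and with both of replicate 3 left out it was 0 of 43, beside 0.651% of all genes, a setting chosen after the data were seen. RRM2 and CDC20 have pseudogene copies, and how the counting treated reads that fit both is not given in the sources used here, so their counts are uncertain.

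The promoters of these genes were read for the short elements known from the E2F and MuvB systems. Whether the motifs have a part in the differences between replicates was not tested. Promoters, from 250 bases before to 50 after the RefSeq start (GRCh38.p14), were found for 15 replication genes, 18 G2/M genes and 1 D-type cyclin. Searched on both strands were the E2F site, written as TTTCCCGC, TTTCGCGC, TTTGCCGC or TTTGGCGC, the cell cycle homology region (CHR, bound by MuvB) as TTTGAA or TTCGAA, and the CCAAT box, bound by NF-Y. An E2F site was present in 11 of 15 replication promoters (73.3%), 3 of 18 G2/M promoters (16.7%) and 3.33% of all 27305 RefSeq promoters, and in 15 of 46 promoters of other replication genes (32.6%). A CHR was present in 2 of 15 replication promoters (13.3%), 13 of 18 G2/M promoters (72.2%) and 16.6% of all, and in 37 of 56 promoters of other G2/M genes (66.1%). CCAAT boxes were frequent in both, at 73.3% and 88.9% beside 35.7% of all, and 8 of the 18 G2/M promoters combined a CHR with at least 2 of them (44.4%, beside 1.98% of all). A match is a stretch of letters, not evidence of binding in these cells.

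Replication genes are represented here by 4 stretches upstream of the start, printed 5′ to 3′ on the gene's strand with E2F matches in capitals. MCM6 carries 2 stretches of overlapping matches (chr2:135876514-135876603, minus strand), GINS2 1 match (chr16:85688955-85689014, minus strand), UHRF1 1 match (chr19:4909441-4909500, plus strand) and PCNA 1 match (chr20:5126653-5126712, minus strand). The first 3 were among the genes called by replicate number, and PCNA was just outside the threshold (adjusted p 0.0511). Match and call did not always go together. RRM2 was called and had no E2F match, whereas MCM3, TYMS, CDT1 and E2F1 had a match and were not called.
MCM6: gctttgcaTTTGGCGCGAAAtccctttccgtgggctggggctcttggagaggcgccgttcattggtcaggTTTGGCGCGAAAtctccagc
GINS2: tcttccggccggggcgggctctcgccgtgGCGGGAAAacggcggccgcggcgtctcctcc
UHRF1: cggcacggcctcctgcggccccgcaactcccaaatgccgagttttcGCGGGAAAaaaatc
PCNA: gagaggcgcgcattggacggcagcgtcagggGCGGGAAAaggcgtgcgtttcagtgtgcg

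G2/M genes are represented by the 3 called by replicate number and by CCNB2 (cyclin B2), which shows the array of CCAAT boxes upstream of a CHR. Capitals mark CHR and CCAAT matches on either strand. CCNB2 lies at chr15:59105016-59105135, CDC20 at chr1:43358871-43358940, KIF23 at chr15:69414269-69414318 and BUB1B at chr15:40161009-40161068, all on the plus strand. BUB1B has a CHR and no CCAAT box in the window.
CCNB2: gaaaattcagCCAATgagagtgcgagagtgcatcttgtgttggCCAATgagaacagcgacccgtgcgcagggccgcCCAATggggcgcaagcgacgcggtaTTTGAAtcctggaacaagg
CDC20: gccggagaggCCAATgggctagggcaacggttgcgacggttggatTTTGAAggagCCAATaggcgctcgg
KIF23: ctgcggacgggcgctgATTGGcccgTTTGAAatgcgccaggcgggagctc
BUB1B: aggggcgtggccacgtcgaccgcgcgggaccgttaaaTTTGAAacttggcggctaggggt

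**Figure D3:**
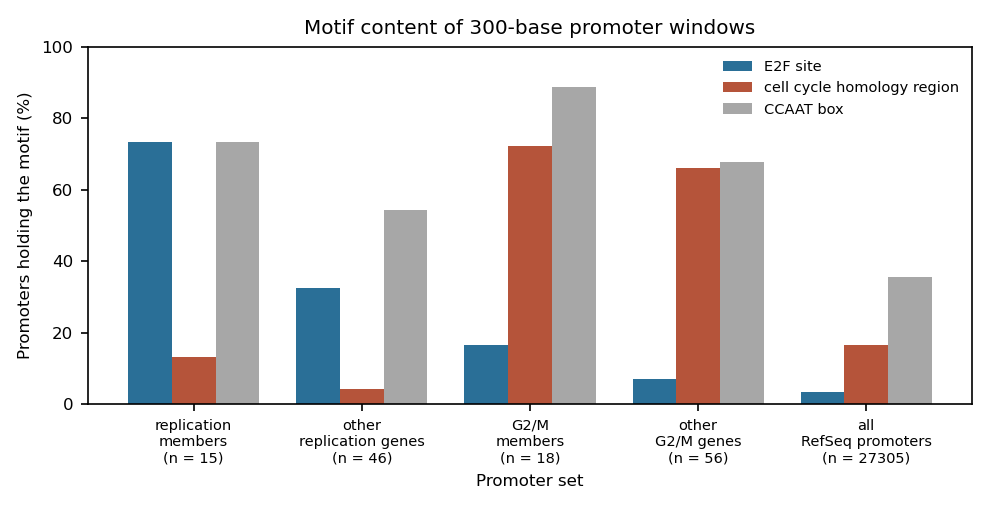
Bars give the percent of promoters that hold each motif, for the members, for the other replication and G2/M genes, and for all RefSeq promoters, with the number of promoters below each set. E2F sites are in 73.3% of replication members and 32.6% of other replication genes, and CHRs in 72.2% of G2/M members and 66.1% of other G2/M genes.

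The effect of the medium was read first within libraries of the same number. Among G2/M genes, 22 of 22 were lower in DMEM plus fatty acids in pair 1, 22 of 22 in pair 2 and 5 of 22 in pair 3, where 49.6%, 49.8% and 47.2% of all genes were lower. Their median log2 differences (prior count of 2) were -1.08, -0.59 and 0.12. Among replication genes, 14, 17 and 8 of 18 were lower, with medians of -0.23, -0.28 and 0.02. Scaling by total counts alone left the G2/M counts of pairs 1 and 2 at 22, and gave 1 of 22 in pair 3 and 13, 15 and 2 of 18 for replication genes. Pairs 1 and 2 thus had lower G2/M levels in DMEM plus fatty acids and pair 3 did not. The sum of the 12 fibroblast and stromal markers was lower in DMEM plus fatty acids in all 3 pairs. DDR2 among them was higher there in pair 1 (25.7 against 15.8 CPM) and pair 3 (8.74 against 6.15 CPM). What part these cells play in the G2/M levels was not tested. Whether pair 3 differs from the others in its response could not be tested, since each medium and number has 1 library.

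**Figure D4:**
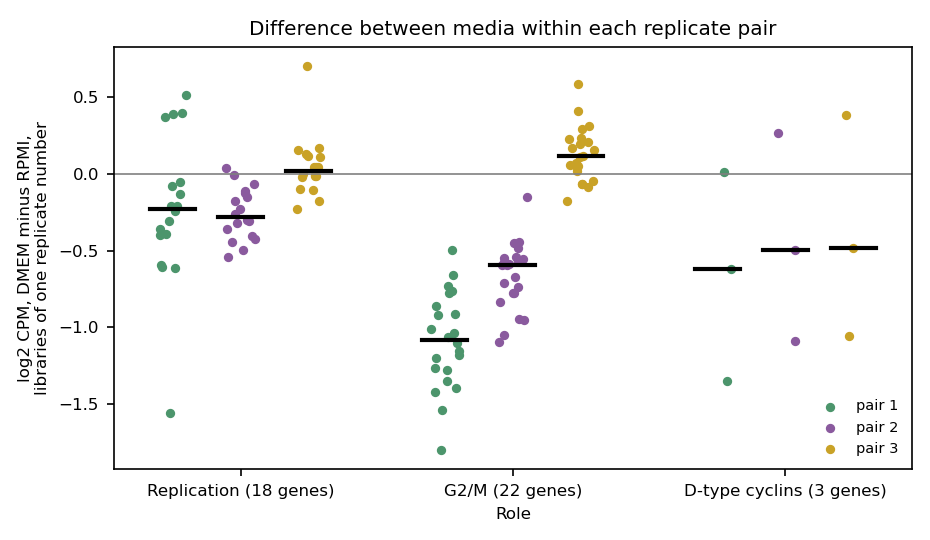
Each point is 1 gene's log2 CPM in DMEM plus fatty acids minus that in RPMI plus B27 for libraries of 1 replicate number, with black bars at the median. The G2/M medians are -1.08, -0.59 and 0.12 in pairs 1, 2 and 3.

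UBE2C, the ubiquitin-conjugating enzyme of the anaphase-promoting complex, had the lowest ratio between media in pair 1. It stood at 35.8, 28.1 and 50.0 CPM in RPMI plus B27 and 10.2, 13.5 and 47.2 CPM in DMEM plus fatty acids, ratios of 0.285, 0.481 and 0.944. CDK1, the mitotic kinase, had 41.0, 36.2 and 52.7 CPM against 14.0, 18.7 and 64.5 CPM. Among its cyclins, CCNB1 had 59.7, 54.3 and 101.2 CPM against 31.5, 36.5 and 105.2 CPM, and CCNA2 had 44.0, 35.4 and 66.3 CPM against 16.7, 19.7 and 77.9 CPM. In each of these genes DMEM plus fatty acids replicates 1 and 2 lay below all 3 RPMI plus B27 libraries. CENPA, the centromeric histone, was low, with replicates 1 and 3 close in RPMI plus B27 (8.33, 6.51 and 8.61 CPM) but not in DMEM plus fatty acids (3.06, 3.01 and 11.5 CPM). BUB1, a checkpoint kinase, was lower in all 3 pairs, with ratios of 0.414, 0.584 and 0.883. AURKA, a kinase of spindle poles, was among the least different, with ratios of 0.707, 0.902 and 1.12.

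The other G2/M genes repeated this picture. AURKB and BIRC5 (both of the chromosomal passenger complex) had ratios of 0.389, 0.516 and 1.16 and of 0.529, 0.734 and 0.970. For PLK1 (polo-like kinase) they were 0.465, 0.609 and 1.04, and for CCNB2 0.410, 0.684 and 1.15. The kinetochore genes CENPE and CENPF had 0.439, 0.600 and 1.04 and 0.584, 0.666 and 1.05. Ratios of the spindle motors and spindle-binding proteins KIF11, KIF20A, NUSAP1 and TPX2 lay between 0.447 and 0.495 in pair 1, between 0.583 and 0.716 in pair 2 and between 1.08 and 1.17 in pair 3.

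Over all 6 libraries, no member was called between media (edgeR quasi-likelihood test, 0 of 43, against 1.36% of all genes). At an unadjusted p under 0.05 there were 2, CCND1 and CCND2 (4.65% of members, beside 17.7% of all genes), and the DESeq2 Wald test called 1, CCND1 (2.33%, beside 7.56% of all genes), so both shares lay below the background. Median log2 fold changes were -0.13 for the 18 replication genes and -0.31 for the 22 G2/M genes, beside 0.01 over all genes. All 22 G2/M fold changes were below 0 with all 6 libraries, but 15 of the 22 turned above 0 in at least 1 fit that left out libraries, as did MKI67, TOP2A and AURKA under scaling by total counts, which moved the median of all genes to 0.12. For MKI67 the fold change was -0.05 with an SE of 0.66, and the widest G2/M difference, that of UBE2C, was -0.68 with an SE of 0.56 (adjusted p 0.568). In the edgeR fit with replicate number as a block they were -0.33 (SE 0.21) and -0.96 (SE 0.31), with adjusted p values of 0.381 and 0.138. No replication or G2/M gene had media that did not overlap, which 25.6% of all genes had. The medians moved with the libraries kept. Without DMEM plus fatty acids replicate 3 they were -0.73 and -1.21, and without RPMI plus B27 replicate 3 they were 0.36 and 0.09. Without RPMI plus B27 replicate 1 or 2 they were -0.37 and -0.44 or -0.27 and -0.48, and without DMEM plus fatty acids replicate 1 or 2 they were 0.14 and -0.01 or 0.06 and -0.03. With both libraries of replicate 3 left out they were -0.25 and -0.87, and again 0 of 43 members were called. Once replicate number entered the fit as a block, 2 of 43 were called (4.65%), a share near the 4.78% of all genes, and the medians were -0.16 and -0.50.

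Those 2 were D-type cyclins, the partners of CDK4 and CDK6 that link growth signals to Rb. CCND1 (cyclin D1) stood at 234.2, 230.6 and 233.5 CPM in RPMI plus B27 and 152.5, 163.3 and 167.1 CPM in DMEM plus fatty acids. The media did not overlap, and the spread within each medium was small beside the difference. Its log2 fold change was -0.53 ± 0.10 (SE), with an adjusted p of 0.0609 without and 0.0449 with the replicate block (4.46e-05 to 0.502 over 15 alternatives). CCND1 was called in 2 of these 15, the block and DESeq2. It was not called by replicate number (adjusted p 0.948).

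CCND2 (cyclin D2) had 307.6, 169.5 and 418.6 CPM in RPMI plus B27 and 120.6, 79.7 and 201.4 CPM in DMEM plus fatty acids. It was lowest in replicate 2 and highest in replicate 3 of both media, and the ratios between media were 0.392, 0.470 and 0.481. The log2 fold change was -1.16 ± 0.41 (SE), with an adjusted p of 0.209 without and 0.0124 with the replicate block (0.0124 to 0.458 over 15 alternatives). CCND2 was called in 1 of these 15, the block itself. CCND3 (cyclin D3) had 28.0, 42.2 and 48.1 CPM against 28.3, 50.9 and 62.9 CPM and was called in neither fit (adjusted p 0.704 and 0.296). It was lowest in replicate 1 of both media. Whether the 3 cyclins differ in these patterns was not tested.

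**Figure D5:**
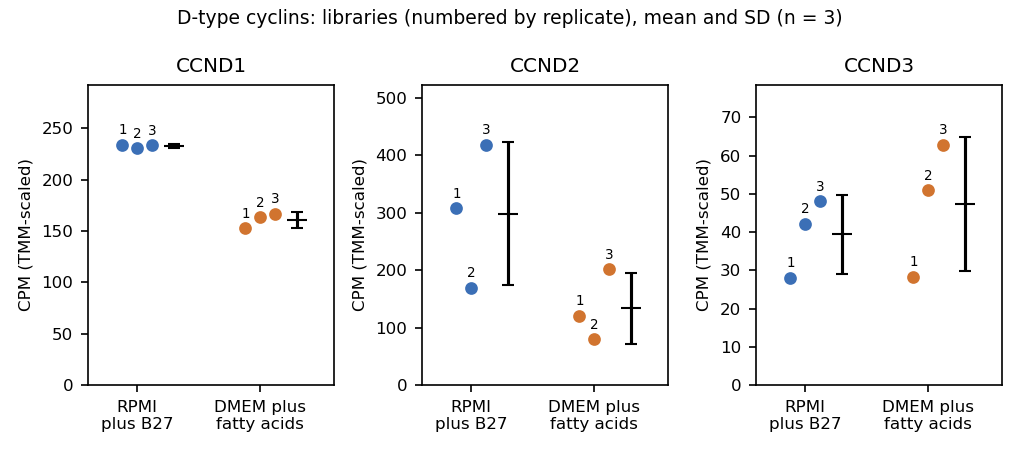
CPM of CCND1, CCND2 and CCND3 in the 6 libraries, numbered by replicate, with the mean and SD (n = 3) of each medium in black. CCND1 is 230.6 to 234.2 CPM in RPMI plus B27 and 152.5 to 167.1 CPM in DMEM plus fatty acids, whereas CCND2 and CCND3 overlap between media.

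Further genes of the cycle were taken from 3 lists. Of 55 other replication genes, 0 were called between media by edgeR, 0 reached an unadjusted p under 0.05 and 0 were called by DESeq2. Over all genes these shares were 1.36%, 17.7% and 7.56%. By replicate number 11 were called in edgeR (20%), beside 0.844% of all genes. The 4 with the smallest p by number were TIMELESS, which stabilises the fork, CHAF1A, a chaperone that deposits histones behind it, TK1 (thymidine kinase 1) and FEN1 (flap endonuclease 1), each with an adjusted p of 0.0421. TK1 had 16.2, 21.6 and 47.1 CPM in RPMI plus B27 and 9.95, 13.1 and 36.1 CPM in DMEM plus fatty acids. The 4 with the smallest p by medium, ORC4, SLBP, ORC6 and POLA1, had log2 fold changes of 0.32, -0.33, -0.55 and 0.59 and adjusted p values of 0.299 to 0.418.

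Of 68 other G2/M genes, 7 were called by replicate number (10.3%, beside 0.844% of all genes). Those with the smallest p were ZWINT (a kinetochore protein, adjusted p 0.0386), MYBL2 (B-MYB), CENPM and CENPU. MYBL2 had 34.0, 37.6 and 93.8 CPM in RPMI plus B27 and 16.9, 23.3 and 76.1 CPM in DMEM plus fatty acids, lower in all 3 pairs. Between media 1 of the 68 was called (1.47%), and 3 with the replicate block (4.41%), shares near the 1.36% and 4.78% of all genes, so these calls are given as single genes. WEE1, the kinase that holds CDK1 inactive, fell from 160.1, 121.5 and 136.7 CPM to 79.4, 70.1 and 87.3 CPM, without overlap between media (log2 fold change -0.82 ± 0.14, adjusted p 0.0486). The call was narrow, held in 4 of 15 alternatives (0.000122 to 0.355) and lost whichever of the 6 libraries was omitted. The other 2 called with the block were UBE2S and ANLN (anillin), with adjusted p values of 0.221 and 0.379 without and 0.0414 and 0.0359 with it (ranges over 15 alternatives 0.0414 to 0.626 and 0.0359 to 0.765). PTTG1 (securin) had a log2 fold change of -0.77 ± 0.39 and was not called in either of these fits.

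Among 29 regulators of G1, Rb, E2F and the DREAM complex, 0 were called by replicate number in edgeR, beside 0.844% of all genes. An unadjusted p under 0.05 was reached by 10 (34.5%, beside 17.2% of all genes). The DESeq2 likelihood ratio test called 7, beside 7.37% of all genes. In edgeR E2F2 was nearest at an adjusted p of 0.0509, then E2F7, CDC25A and TFDP1 at 0.0601, 0.0641 and 0.0850. Between media 1 of 29 was called (3.45%), and 2 with the block (6.90%), beside 1.36% and 4.78% of all genes. DESeq2 called 3 between media, beside 7.56% of all genes. CDKN2B, an inhibitor of CDK4 and CDK6, fell from 65.2, 78.5 and 69.2 CPM to 4.00, 9.80 and 5.81 CPM (log2 fold change -3.43 ± 0.32, adjusted p 0.0164, 3.92e-23 to 0.121 over 15 alternatives). Its call was lost without RPMI plus B27 replicate 2 (0.0714), without DMEM plus fatty acids replicate 3 (0.0684), and without both libraries of replicate 2 (0.0844) or 3 (0.121). CDKN2A, its neighbour, had 2.94, 6.89 and 5.11 CPM against 0, 0.635 and 0.474 CPM, with adjusted p values of 0.0818 without and 0.0253 with the block (3.02e-05 to 0.442 over 14 alternatives). CDK4, the kinase they inhibit, was higher in DMEM plus fatty acids in all 3 pairs, by ratios of 1.37, 1.29 and 1.30, and was not called (adjusted p 0.147). CDKN2D had a log2 fold change of -0.88 ± 0.26 (adjusted p 0.148). An antisense gene overlaps the CDKN2B locus, and the strand setting of the counting is not given in the sources used here, so the counts of these neighbours are uncertain.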

How the data were processed

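Polyadenylated RNA had been sequenced from 6 cultures, 3 in each medium, after column extraction with DNase digestion and a stranded library kit, per the labels' protocols. The deposited values are raw counts of reads per gene for each library. STAR, HTSeq and hg38 are named in the submitters' processing notes, and their roles, versions, annotation and strand setting are not given in the sources used here. Gene rows held 84.4% to 87.2% of the counts in each file, and the other rows, which name no gene, were left out.

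Genes were kept by edgeR's filter (minimum count 10, minimum total 15), scaled by TMM and fitted with edgeR 4.0.16 in R 4.3.3 by the quasi-likelihood method, by medium alone, by medium with the replicate number as a block, and by replicate number with the medium as a term. P-values were adjusted by Benjamini-Hochberg over all genes tested, with a threshold of 0.05. A count of 0 allows up to 3 counts, or 0.0967 to 0.129 CPM across libraries, for counting error only. The titles number the replicates 1 to 3 in both media. Deviations from the medium means correlated at 0.31, 0.43 and 0.37 between libraries of the same number and at -0.24 to -0.14 between others, so the numbers were taken to pair the libraries. Deviations from a mean of 3 libraries sum to 0, so the negative values follow from the positive ones and add no support. The same counts entered the fits with replicate number. Alternatives used other scalings and filters, DESeq2 1.42.0 and fewer libraries.

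Genes named are the 43 members and, of each list of other cell cycle genes, the 4 with the smallest p by medium and by replicate number. Other genes are named only as markers. Members and lists were chosen with earlier results of these data known. Promoter sequences come from RefSeq (GRCh38.p14).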

Additional observations from a re-analysis of the deposited data

How the results depend on the processing

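With 3 libraries a medium and 2 residual degrees of freedom under the block, counts of calls moved widely, and the cause was not tested. By medium, 219 genes were called, 119 with at least 10 counts in every library, 539 without the filter, 1218 by DESeq2, 770 with the replicate block, and 0 to 131 when libraries or, as chosen after the data were seen, pairs were left out. Of the 43 members the main test called 0, DESeq2 1 and the replicate block 2. By replicate number, 136 genes and 13 members were called, 74 and 6 with at least 10 counts everywhere, 708 and 36 without the filter, 1187 and 39 by the DESeq2 likelihood ratio test, 0 and 0 without the medium in the model, and 105 to 2484 and 0 to 42 with libraries or pairs left out. The replicate block changed no other call among the members. Over leave-outs the median log2 fold change ranged from -0.73 to 0.36 for replication genes and from -1.21 to 0.089 for G2/M genes. The mean summed CPM of each medium moved by less than the SD of its 3 libraries. Leaving out 1 of 3 libraries can never move a mean by more than that, so those settings say nothing about stability. Scaling by total counts moved the median of all genes from 0.01 to 0.12. It turned the fold changes of MCM2 (0.032), PCNA (0.0057), GINS2 (0.076), CCNE1 (0.10), UHRF1 (0.0704), MKI67 (0.10), TOP2A (0.075) and AURKA (0.050) above 0. By medium, 32 of 43 members changed sign in some setting, none of them called in any. Their ranges, from lowest to highest, were as follows over the leave-outs. For replication genes they were -0.77 to 0.44 (MCM2), -0.23 to 0.52 (MCM3), -0.30 to 0.60 (MCM4), -0.94 to 0.40 (MCM5), -0.76 to 0.20 (MCM6), -0.62 to 0.28 (MCM7), -0.57 to 0.18 (PCNA), -0.84 to 0.047 (RRM1), -0.62 to 0.81 (RRM2), -0.82 to 0.18 (TYMS), -0.94 to 0.55 (GINS2), -0.70 to 0.55 (CDC6), -1.24 to 0.032 (CDT1), -1.06 to 0.33 (CDC45), -0.30 to 0.17 (CCNE1), -0.45 to 0.78 (CCNE2) and -0.95 to 0.73 (UHRF1). For G2/M genes they were -1.07 to 0.021 (CCNB1), -1.30 to 0.085 (CCNB2), -1.22 to 0.51 (MKI67), -1.14 to 0.27 (TOP2A), -1.10 to 0.13 (BUB1B), -0.56 to 0.18 (AURKA), -1.27 to 0.015 (PLK1), -1.18 to 0.28 (CDC20), -1.11 to 0.12 (BIRC5), -1.10 to 0.16 (CENPF), -1.17 to 0.12 (KIF11), -1.17 to 0.17 (KIF20A), -1.01 to 0.10 (KIF23), -1.24 to 0.047 (NUSAP1) and -1.21 to 0.092 (TPX2).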

Other observations

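Of the 136 genes called by replicate number in the edgeR fit, 31 (22.8%) belonged to the 6 cell cycle lists, which hold 195 of the genes tested (1.21%), and in all 31 replicate 3 was the highest in both media. By the fitted differences between numbers, which take both media together, replicate 3 was highest in 64 of the 136 and lowest in 39.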
